A study of Mus musculus with 6 samples.

Results

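Serine proteases that are tethered to the surface of epithelial cells, together with the inhibitors that restrain them, were followed through RNA-seq gene counts of mouse tongues with tumours. The set holds 9 genes: the Tmprss11 airway-type proteases Tmprss11a, Tmprss11d, Tmprss11e, Tmprss11f and Tmprss11g, matriptase (St14), prostasin (Prss8), and the hepatocyte growth factor activator inhibitors Spint1 and Spint2. All 9 were found by symbol among the 24067 genes of the deposited table, and all 9 were among the 15903 genes with enough counts to be tested. The genes were selected on measured values, because the set was proposed after their levels in these same libraries had been seen. Their differences between the groups are therefore given as a description. The genes went through the same fit as the whole table, and counts of those past its threshold are given beside the share of all genes past it, but for these 9 genes nothing is read from them.

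The series compared 3 tongue samples labelled HuR KO with 3 labelled WT. HuR is the product of Elavl1 and recognises AU-rich elements in messenger RNAs. Animals of both groups were C57BL/6 mice of about 34 weeks and had received the oral carcinogen 4-nitroquinoline 1-oxide for 16 weeks and were then kept for 12 weeks while tumours formed. RNA came from whole tongue with its tumours. The labels give no Cre driver, allele or sex for the KO mice, and no group without the carcinogen was analysed here.

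Matriptase and the Tmprss11 proteases are type II transmembrane proteins with an extracellular trypsin-like domain that cuts after arginine or lysine, while prostasin is held to the membrane by a lipid anchor. In mouse epidermis, matriptase and prostasin act in one proteolytic cascade that is needed for barrier formation, and Spint1 and Spint2 encode Kunitz-type transmembrane inhibitors that hold this cascade in check. In mice, excess matriptase in keratinocytes causes squamous cell carcinoma, and added Spint1 opposes it. The Tmprss11 genes are known mainly from airway, oral and other stratified epithelia.

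The 7 proteases share the chemistry of their catalytic serine, and the coding sequence around it is shown to let the genes be compared. Each line gives 33 bases of the coding strand from GENCODE M21 transcripts on GRCm38 (mm10), 5′ to 3′, with the codon of the active-site serine in capitals. The site was found in each translation as the only run of glycine, aspartate, serine, glycine, glycine.
Tmprss11a: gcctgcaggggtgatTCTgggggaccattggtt
Tmprss11d: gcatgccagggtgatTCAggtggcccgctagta
Tmprss11e: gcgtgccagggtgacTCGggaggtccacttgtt
Tmprss11f: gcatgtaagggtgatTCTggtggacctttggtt
Tmprss11g: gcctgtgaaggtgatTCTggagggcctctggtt
St14: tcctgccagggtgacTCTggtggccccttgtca
Prss8: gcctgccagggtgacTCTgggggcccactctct
In these windows, 17 of 33 positions held the same base in all 7 genes, and 20 held the same base in the 5 Tmprss11 genes. The serine codon was TCT in Tmprss11a, Tmprss11f, Tmprss11g, St14 and Prss8, TCA in Tmprss11d and TCG in Tmprss11e. The inhibitors Spint1 and Spint2 had no such site. Over whole transcripts, 0 of 29 pairs (the 7 proteases and Tmprss11b with each other, and Spint1 with Spint2) shared a run of 50 identical bases. Prss8 shares 122 bp of exon with Kat8 on the opposite strand, and since no strand setting is known for the counting, reads in that stretch cannot be told apart.

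The 5 Tmprss11 members lie in one cluster on chromosome 5 (86302854 to 86745807, GRCm38, all on the minus strand), in the order Tmprss11d, Tmprss11a, Tmprss11g, Tmprss11f, Tmprss11b and Tmprss11e. St14 lies on chromosome 9 (31088590 to 31131811, minus strand), Prss8 on chromosome 7 (127925717 to 127930149, minus), Spint1 on chromosome 2 (119237360 to 119249535, plus) and Spint2 on chromosome 7 (29256330 to 29282059, minus). Promoters of 6 members were matched in the RefSeq table for GRCm38.p6, and 3 from the cluster are printed to set the AP-1 matches in Tmprss11d and Tmprss11f beside Tmprss11g, the member farthest apart between the groups, which has none. They run from 250 bases before to 50 after the annotated start, at chr5:86373338-86373637 for Tmprss11d, chr5:86632375-86632674 for Tmprss11f and chr5:86518551-86518850 for Tmprss11g, all read on the minus strand, with matches to the AP-1 letters TGANTCA in capitals.
Tmprss11d: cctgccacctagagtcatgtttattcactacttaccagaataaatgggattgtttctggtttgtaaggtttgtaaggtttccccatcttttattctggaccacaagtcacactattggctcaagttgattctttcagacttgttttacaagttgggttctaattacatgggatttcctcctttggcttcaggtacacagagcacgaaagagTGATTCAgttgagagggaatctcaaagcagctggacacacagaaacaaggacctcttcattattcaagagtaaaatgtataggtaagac
Tmprss11f: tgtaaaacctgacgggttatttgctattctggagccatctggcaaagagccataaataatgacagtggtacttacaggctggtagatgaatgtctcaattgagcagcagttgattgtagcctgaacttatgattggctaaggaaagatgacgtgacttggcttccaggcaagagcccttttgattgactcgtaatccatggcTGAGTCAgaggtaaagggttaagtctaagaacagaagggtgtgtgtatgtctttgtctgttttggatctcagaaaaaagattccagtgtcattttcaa
Tmprss11g: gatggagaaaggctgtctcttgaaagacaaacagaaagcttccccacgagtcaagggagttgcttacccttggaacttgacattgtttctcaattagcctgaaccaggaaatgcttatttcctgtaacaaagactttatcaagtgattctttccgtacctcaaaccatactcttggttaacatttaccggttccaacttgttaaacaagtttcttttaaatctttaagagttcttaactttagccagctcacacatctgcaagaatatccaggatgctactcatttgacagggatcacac
Searching both strands with any base allowed at N, TGANTCA matched once in Tmprss11d (TGATTCA, first base at position -39 from the start). It matched once in Tmprss11f (TGAGTCA, -48) and once in Spint1 (TGACTCA, -6). Whether a protein binds these matches, or whether they bear on the levels below, was not tested. No match to those letters was found in these windows of Tmprss11a, Tmprss11g and Spint2. Over all 32851 promoters of the table, 7.81% held a match. The grainyhead letters AACNGGTT, found in 2.09% of all promoters, and TATAAA, found in 13.62%, matched in none of the 6, and CCNCACCC, the Klf letters found in 16.58%, matched in Spint1 and Spint2.

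Total gene counts ran from 29543352 to 51520707 per library, so that 1 CPM (the normalised count, scaled to library size with a TMM factor) stood for 25.6 to 53.0 counts. Elavl1 was not lower in the KO-labelled libraries, which held 65.0, 59.3 and 78.4 CPM, against 61.7, 55.8 and 48.0 CPM for the WT-labelled ones (log2 fold change 0.29 ± 0.15 SE, edgeR adjusted p = 0.180, exact 2-sided permutation p = 0.2 where 3 against 3 cannot go below 0.1). The groups are therefore called by their labels. The sexes were also unequal: Xist had 1.24, 1271 and 1104 CPM over KO replicates 1, 2 and 3, against 1.00, 0.625 and 2.50 CPM over the WT replicates, so KO replicates 2 and 3 carry the pattern of females and the other 4 libraries that of males. No WT library had the female pattern, so for those 2 libraries sex and label cannot be told apart. KO replicate 1, the library labelled KO that matched the WT tongues in this respect, was compared with them separately.

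Levels of cell type markers differed between the groups too. Summed over 6 pan-epithelial markers, levels averaged 6260 ± 1168 CPM in KO tongues and 2944 ± 1054 CPM in WT tongues (SD, n = 3 each), a ratio of 2.13. All 6 stood higher in KO and 1 passed the test. Summed over 12 fast muscle markers, levels were 44224 ± 8674 CPM in KO and 97455 ± 29133 CPM in WT, a ratio of 0.454, with all 12 lower in KO and 2 past the test. Basal keratinocyte markers gave a ratio of 1.73 (8 of 8 higher) and suprabasal markers 1.52 (12 of 12 higher, 5 past the test), and no marker of these 4 lists was at 0 in every library. The ratio was 0.696 for fibroblast, 0.641 for endothelial, 0.841 for taste bud and 3.66 for leukocyte markers, the last mostly from S100a8, a neutrophil and wounded keratinocyte gene. It was 0.657 for 12 salivary gland markers, of which 4 were at 0 in every library. The salivary sum was mostly Amy1 (28.7 of 35.8 CPM in KO, 52.0 of 54.5 CPM in WT), and 3 of the 6 tested salivary genes were higher in KO. The taste bud sum was mostly Entpd2 (22.3 of 41.2 CPM in KO, 32.3 of 48.9 CPM in WT), and 3 of the 5 tested taste genes were higher in KO. In the leukocyte sum S100a8 made up 418 of 507 CPM in KO and 60.3 of 139 CPM in WT. Of the 7 tested leukocyte genes 4 were higher in KO, and 0 passed the test. The salivary, taste bud and leukocyte ratios therefore do not speak for their lists. In whole tissue, more cells of a type and more RNA per cell cannot be told apart. The part of tissue makeup in the differences below was not tested. Models with a marker covariate are given, but the muscle and basal marker sums did not overlap between the labels.

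All 9 members had higher mean levels in the tongues labelled KO. For 8 of the 9, every library labelled KO stood above every library labelled WT, where 22.0% of all genes tested did so. The exception was Tmprss11a. By the quasi-likelihood test of edgeR, adjusted over all genes by the Benjamini-Hochberg method, 6 members were past 0.05 in the higher direction (Tmprss11d, Tmprss11e, Tmprss11g, St14, Spint1 and Spint2), where 4.81% of all genes tested were. In the lower direction 0 members were called, and 0 had an unadjusted p under 0.05, where 7.43% of all genes tested were called lower. DESeq2 and limma-voom also called 0 lower. The median log2 fold change was 1.02 over the 9 members and 0.02 over all genes tested.

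**Figure D1:**
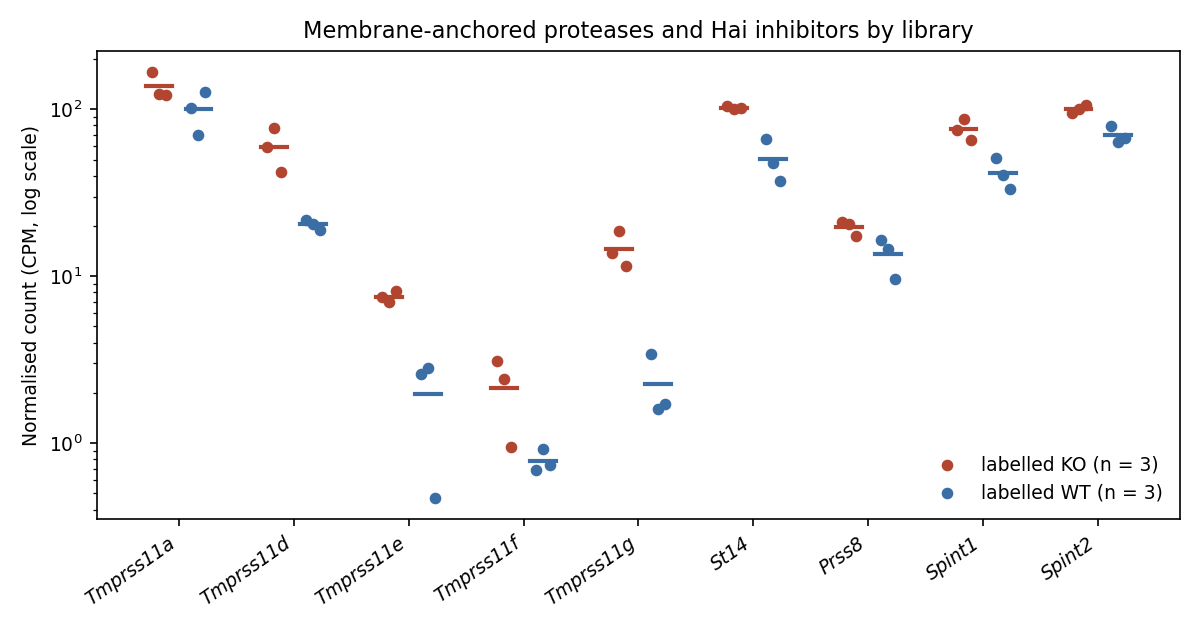
Normalised counts (CPM, log axis) of the 9 genes in each library, with libraries labelled KO (red) left of those labelled WT (blue), points for libraries and bars for group means (n = 3 each). Tmprss11a is the 1 gene whose groups overlap, and Tmprss11g shows the widest gap between the groups, with 11.6 CPM or more in KO and 3.41 CPM or less in WT.

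Among the Tmprss11 proteases, Tmprss11g stood farthest apart. Its 3 libraries labelled KO held 13.7, 18.6 and 11.6 CPM, against 3.41, 1.61 and 1.72 CPM in those labelled WT, from 630, 705 and 614 counts in KO and 119, 77 and 44 counts in WT. The lowest KO library lay 3.40 times above the highest WT library, and the log2 fold change was 2.70 ± 0.33 (SE, 95% interval 1.94 to 3.47), a fold of 6.51. Of all genes tested, 0.296% had a larger log2 fold change. Tmprss11g is a member of the family known from rodents.

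Tmprss11d, the airway trypsin-like protease that in human cells activates influenza haemagglutinin, held 59.7, 77.1 and 42.3 CPM in the libraries labelled KO and 21.8, 20.6 and 19.0 CPM in those labelled WT. The coefficient of variation was 29.2% in KO and 6.86% in WT, and the lowest KO library lay 1.94 times above the highest WT library. The log2 fold change was 1.54 ± 0.21.

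Tmprss11e, first described in humans by its altered expression in squamous cell carcinoma, held 7.54, 6.98 and 8.13 CPM in KO and 2.58, 2.84 and 0.469 CPM in WT. Here the spread lay on the WT side: the lowest value, in WT replicate 3, came from 12 counts. The log2 fold change was 1.91 ± 0.50, and 1.48 without WT replicate 3.

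Tmprss11f, which contributes to the skin barrier in mice, was the scarcest member. It held 3.09, 2.41 and 0.944 CPM in KO and 0.688, 0.917 and 0.743 CPM in WT, from 142, 91 and 50 counts in KO and 24, 44 and 19 counts in WT. The groups did not overlap, but KO replicate 3 lay only 1.03 times above the highest WT library. The log2 fold change was 1.44 ± 0.44.

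Tmprss11a was the most abundant of the 5 and the least different. It held 167, 123 and 121 CPM in KO and 102, 70.3 and 127 CPM in WT. WT replicate 3 stood above KO replicates 2 and 3, so the groups overlapped, and the log2 fold change of 0.46 ± 0.23 had a 95% interval of -0.07 to 0.99. WT replicate 3, the library with the lowest sum of the 6 pan-epithelial markers (1849 CPM), was the lowest of the 6 for Tmprss11d, Tmprss11e, St14, Prss8 and Spint1 and the second highest for Tmprss11a.

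The position of a gene within the cluster did not order these differences. From the lower-coordinate end, at distances of 0.0, 107.6, 183.0, 218.4 and 402.3 kb, the log2 fold changes were 1.54 for Tmprss11d, 0.46 for Tmprss11a, 2.70 for Tmprss11g, 1.44 for Tmprss11f and 1.91 for Tmprss11e. The remaining gene of the cluster, Tmprss11b, at 356.7 kb, is listed under the older symbol Tmprss11bnl. It held 40.3, 46.3 and 37.9 CPM in KO and 10.8, 10.2 and 4.34 CPM in WT, and rose by a log2 fold change of 2.28 ± 0.31 (edgeR adjusted p = 0.0295).

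**Figure D2:**
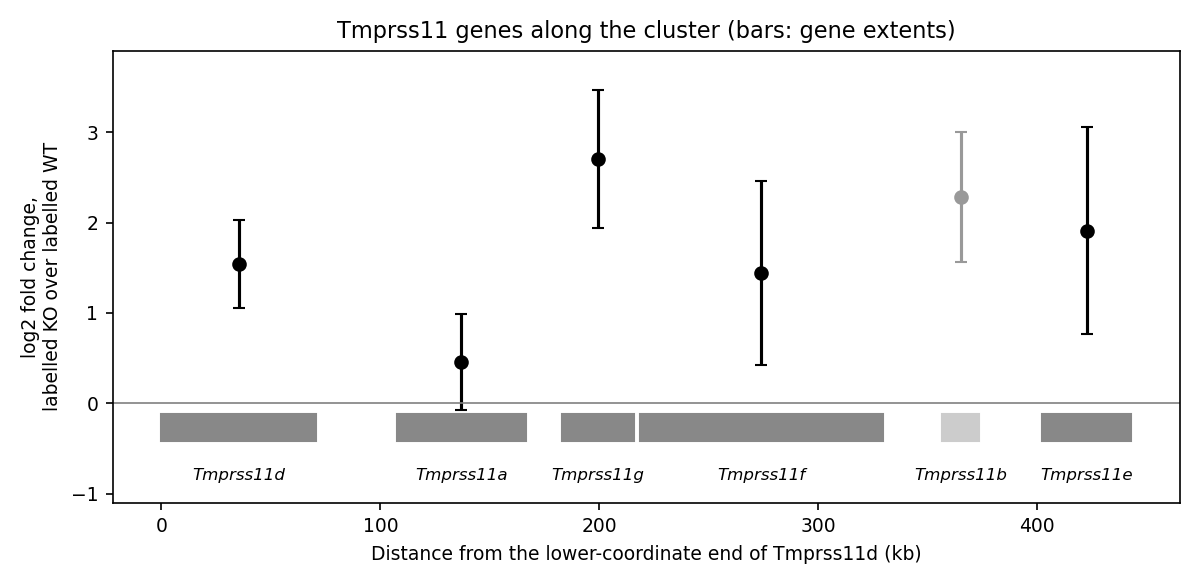
The Tmprss11 cluster drawn to scale in kb from the lower-coordinate end of Tmprss11d (bars, gene extents), with each gene's log2 fold change of labelled KO over labelled WT above it (points, 95% intervals; n = 3 each; Tmprss11b, no member of the set, in lighter grey). Tmprss11a, between Tmprss11d and Tmprss11g, has the smallest difference, 0.46, and its neighbour Tmprss11g the largest of the 6, 2.70.

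Matriptase, St14, was even across the tongues labelled KO and uneven across those labelled WT. It held 105, 99.7 and 102 CPM in KO and 66.5, 47.5 and 37.0 CPM in WT, which is a coefficient of variation of 2.44% in KO and 29.7% in WT. The groups were separate, with the lowest KO library 1.5 times above the highest WT library, and the log2 fold change was 1.02 ± 0.20 (95% interval 0.55 to 1.48).

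Prostasin, Prss8, which in mouse epidermis works with matriptase, differed less. It held 21.1, 20.5 and 17.5 CPM in KO and 16.5, 14.6 and 9.61 CPM in WT. The nearest KO and WT libraries differed by only 1.06 times, and the log2 fold change was 0.54 ± 0.21.

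The inhibitor Spint1, the main partner of matriptase at the cell surface, held 75.0, 87.5 and 65.1 CPM in KO and 51.2, 40.2 and 33.4 CPM in WT (log2 fold change 0.87 ± 0.18). Spint2, which also inhibits matriptase and prostasin, held 95.05, 101 and 106 CPM in KO and 79.9, 63.9 and 67.5 CPM in WT (0.51 ± 0.12). Both inhibitors thus stood higher in the same libraries as matriptase, Spint2 by less than St14.

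**Figure D3:**
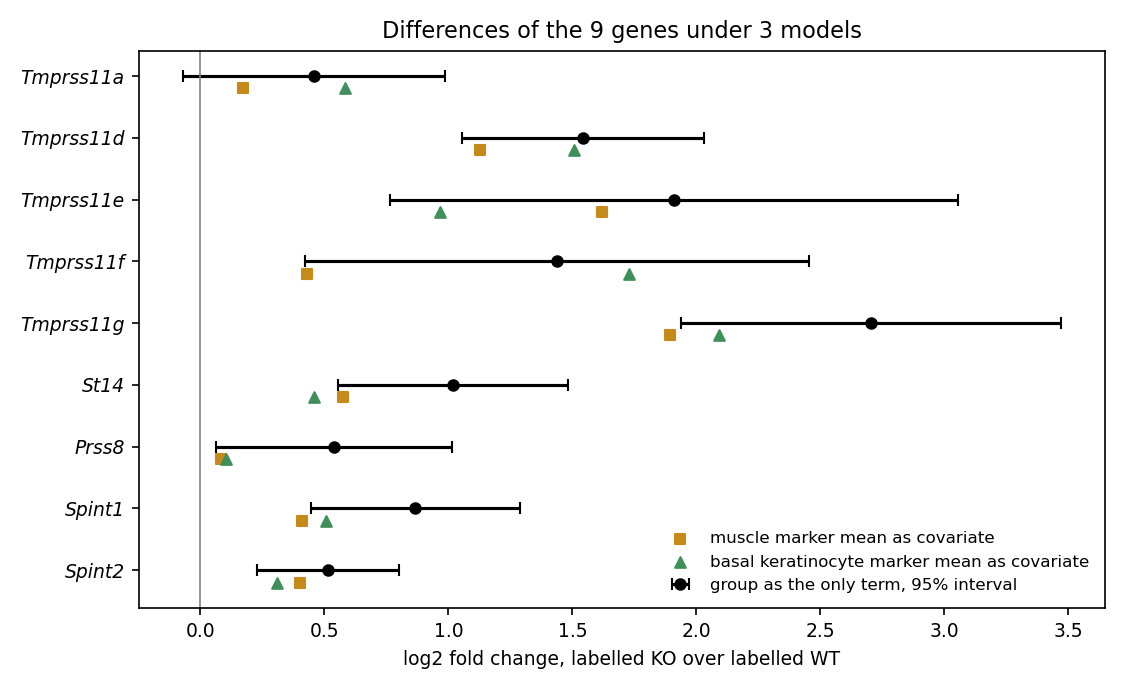
log2 fold change of labelled KO over labelled WT for each gene, from the model with group alone (black, 95% interval) and from models with a muscle marker mean (squares) or a basal keratinocyte marker mean (triangles) as a covariate. All points lie above 0, and Tmprss11g stays highest under each of the 3 models, at 2.70, 1.89 and 2.09, while Prss8 comes down to 0.08 and 0.10. The points of the covariate models are drawn without intervals, and both covariates go closely with the label.

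With the mean of the muscle markers or of the basal keratinocyte markers in the model, each member's fold change remained above 0, but 0 members were called by edgeR, and 0 genes of the whole table were called in either direction. The muscle sums were 38064, 40465 and 54144 CPM in KO and 67920, 98277 and 126168 CPM in WT, without overlap. The basal sums did not overlap either. With 6 libraries, covariate and label can therefore hardly be told apart, and nothing is read from the sign of these fold changes. At an unadjusted p under 0.05 there were 2 members with the muscle covariate and 3 with the basal covariate, where 265 and 388 of all 15903 genes tested were higher. St14 had a log2 fold change of 0.57 with the muscle covariate and 0.46 with the basal one, and Tmprss11e had 1.62 and 0.97. Leaving out a library also changed the count of 6 members called: 0 were called without KO replicate 1, KO replicate 2 or WT replicate 2, 2 without KO replicate 3, 4 without WT replicate 3 and 7 without WT replicate 1, while in these same fits 7 or 8 members had an unadjusted p under 0.05. Over the whole table the genes called higher numbered 4, 0, 0, 49, 294 and 2906 in those fits, in the same order. At an unadjusted p under 0.05, 1922, 1993, 1640, 2495, 2094 and 3973 genes were higher there, of 15967 to 16256 tested.

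KO replicate 1 alone stood above every WT library for 9 of 9 members. The share of all genes for which it did so was not computed, so nothing is read from that count. Its sum of the 6 pan-epithelial markers was 7263 CPM, against 3952, 3030 and 1849 CPM in WT replicates 1, 2 and 3. This library was also compared with the 3 WT libraries in a fit. In that comparison the log2 fold change was 1.02 for St14, 2.58 for Tmprss11g and 1.88 for Tmprss11e, and 0 members were called by edgeR, with 5 at an unadjusted p under 0.05. The lone library was there assumed to vary as the WT libraries did.

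Set against the epithelial markers of the same library, the members differed from each other, and for most of them KO and WT overlapped. The quantity here is the log2 CPM of a gene minus the mean log2 CPM of the 6 pan-epithelial markers, and its difference is that between the group means. By this measure the share of all genes whose groups do not overlap was not computed. Whether the separations of the members below are unusual was therefore not tested. Tmprss11g stood at -5.51, -5.01 and -5.35 in the libraries labelled KO, against -6.83, -7.48 and -6.87 in those labelled WT. That is a difference of 1.77 with no overlap, and it was 2.01 against basal and 1.5 against suprabasal keratinocyte markers, again with no overlap.

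Tmprss11e also stood higher in KO relative to the pan-epithelial markers, by 1.30, and relative to the basal markers, by 1.54, with no overlap, but its groups overlapped against the suprabasal markers (1.03). Tmprss11d (0.54) and Tmprss11f (0.29) overlapped against the pan-epithelial markers. St14 was at -2.59, -2.59 and -2.22 in KO and at -2.57, -2.63 and -2.48 in WT, so relative to these markers the groups overlapped and differed by 0.09. Against the basal markers St14 stood higher in KO by 0.34 without overlap, and against the suprabasal markers it differed by -0.17 with overlap. Spint1 (-0.09), Spint2 (-0.45) and Tmprss11a (-0.48) overlapped as well against the pan-epithelial markers.

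Prss8 was the 1 member that stood lower in KO without overlap by this measure. It was at -4.89, -4.87 and -4.76 in KO and at -4.58, -4.34 and -4.42 in WT, a difference of -0.39 with no overlap. Against the suprabasal markers the difference was -0.66 with no overlap, and against the basal markers -0.15 with overlap.

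To compare levels between genes, CPM were divided by the length of exon covered by the protein-coding transcripts of each gene. On this scale Spint2 was highest, at 72.6 ± 3.87 CPM per kb in KO tongues and 50.9 ± 6.06 CPM per kb in WT tongues (SD, n = 3 each). Tmprss11a followed with 51.7 ± 9.75 in KO and 37.6 ± 10.8 in WT. St14 (31.3 ± 0.763 in KO, 15.5 ± 4.59 in WT) and Spint1 (30.3 ± 4.48 in KO, 16.6 ± 3.59 in WT) were close to each other on these lengths and did not differ beyond their spread.

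Below them came Tmprss11d with 21.3 ± 6.23 in KO and 7.32 ± 0.502 in WT, and Prss8 with 10.7 ± 1.05 in KO and 7.31 ± 1.91 in WT, which in WT did not differ beyond their spread. Tmprss11g had 5.10 ± 1.26 in KO and 0.782 ± 0.352 in WT, and Tmprss11e 2.21 ± 0.168 in KO and 0.574 ± 0.380 in WT. Tmprss11f was lowest, with 0.596 ± 0.305 in KO and 0.217 ± 0.0332 in WT. The order depends on the lengths. With the exons of all annotated transcripts, Spint1 was highest in KO (27.4 CPM per kb) and Tmprss11a in WT (17.5). St14 then had 13.4 CPM per kb in KO and 6.59 in WT, below Spint1 in both groups, below Tmprss11d in both and below Prss8 in WT.

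Within the 5 Tmprss11 members, Tmprss11a made up a smaller share of the summed level per kb in the tongues labelled KO. Its share was 68.3%, 55.8% and 67.7% in KO, against 79.5%, 74.6% and 86.1% in WT, without overlap. Tmprss11d made up 26.2 ± 5.99% in KO and 16.4 ± 4.30% in WT, and Tmprss11g 6.32 ± 1.34% in KO and 1.70 ± 0.696% in WT. The summed level of the 7 proteases was 123 ± 13.8 CPM per kb in KO and 69.3 ± 10.2 in WT, and that of the 2 inhibitors 103 ± 4.59 in KO and 67.5 ± 9.25 in WT. The ratio of these sums was 1.38, 1.16 and 1.06 in KO and 0.994, 0.931 and 1.16 in WT, and the groups overlapped. With the lengths of all annotated transcripts, Tmprss11a made up 47.6 ± 7.44% in KO and 66.5 ± 8.25% in WT, again without overlap, the proteases summed to 74.8 ± 9.44 in KO and 39.9 ± 4.89 in WT and the inhibitors to 49.5 ± 3.74 in KO and 30.5 ± 4.88 in WT, and the ratio of the sums again overlapped.

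Pair by pair, the ratio of a protease to an inhibitor differed in direction. St14 over Spint1 was 1.07, 0.876 and 1.20 in KO and 0.998, 0.910 and 0.851 in WT, so matriptase and its inhibitor had overlapping ratios (difference in log2 ratio 0.18). The level of a ratio depends on the lengths, while the difference in log2 ratio does not: with the exons of all annotated transcripts, St14 over Spint1 averaged 0.495 ± 0.0775 in KO and 0.434 ± 0.0350 in WT. St14 over Spint2 was 0.468, 0.420 and 0.409 in KO and 0.354, 0.316 and 0.233 in WT, higher in KO without overlap (0.54, and 0.17 with the muscle and 0.15 with the basal covariate).

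Prss8 over Spint1 was 0.381, 0.317 and 0.364 in KO and 0.435, 0.490 and 0.389 in WT, lower in KO without overlap (-0.30). Prss8 over Spint2 overlapped (0.06). Tmprss11d over Spint1 was 0.713, 0.789 and 0.581 in KO and 0.381, 0.460 and 0.509 in WT, and Tmprss11g over Spint1 was 0.160, 0.186 and 0.155 in KO and 0.0581, 0.0348 and 0.0449 in WT, both without overlap. Tmprss11e over Spint1 was also higher in KO without overlap (1.44). Tmprss11a over Spint1 averaged 1.73 in KO and 2.38 in WT, with overlap (-0.40), and Tmprss11f over Spint1 overlapped too (0.42). The share of all gene pairs whose ratios do not overlap was not computed. These are ratios of RNA levels and say nothing of protein or of protease activity.

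**Figure D4:**
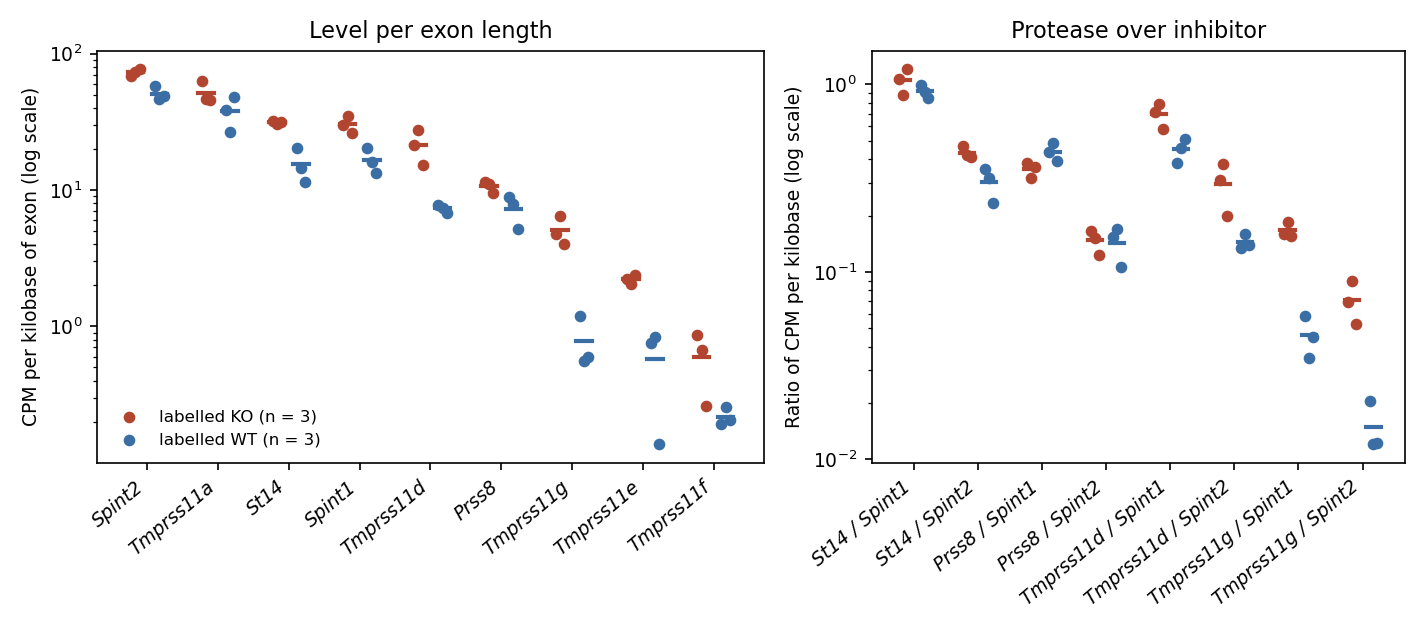
Left, CPM per kilobase of exon for the 9 genes (log axis), ordered by the mean in the tongues labelled KO. Right, the ratio of that level between a protease and an inhibitor in the same library (log axis); points are libraries, bars are means, and KO (red) stands left of WT (blue), n = 3 each. On the lengths of protein-coding transcripts, St14 over Spint1 lies between 0.851 and 1.20 in all 6 libraries, while Tmprss11g over Spint1 is 0.155 or more in KO and 0.0581 or less in WT.

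The genes most like matriptase over the 6 libraries differed little from it. Likeness was the root mean square difference of log2 CPM, each gene centred on its own mean, over 14228 genes with a mean of at least 1 CPM. Crb3, which encodes an apical polarity protein, was nearest with 0.032, at 15.8, 15.1 and 15.6 CPM in KO and 10.5, 7.57 and 5.67 CPM in WT. Next came Epn3 (0.049), an epsin of endocytosis, Ezr (0.061), the membrane-cytoskeleton linker ezrin, Eif6 (0.061), a ribosome assembly factor, and Pkp3 (0.064), a desmosomal plakophilin. In all 5, as in St14, WT replicate 1 was the highest and WT replicate 3 the lowest of the WT libraries, and all 6 libraries are shared by the genes compared.

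Tmprss11a had no neighbour as close. Among its nearest genes were Mpg (0.115), a DNA repair glycosylase, Srgap1 (0.133) and Smim6 (0.153). Among the members themselves, St14 and Spint1 were the most alike (0.175), followed by Prss8 and Spint1 (0.197), while Tmprss11a and Tmprss11e were the least alike (1.36).

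The further gene lists given from here on were also chosen with earlier results of these data known, so their counts and directions are a description. Other membrane-anchored serine proteases rose in part. Of 17 such genes 11 could be tested, 3 rose and 0 fell in the tongues labelled KO by edgeR (Hpn alone had an unadjusted p under 0.05 in the lower direction), and their median log2 fold change was 0.34. Over all genes tested 4.81% were called higher and 7.43% lower, with a median of 0.02. Besides Tmprss11b, Tmprss4, an epithelial protease linked to invasion in human carcinoma cells, held 157, 187 and 144 CPM in KO and 80.6, 44.9 and 30.1 CPM in WT (log2 fold change 1.65 ± 0.33, edgeR adjusted p = 0.0333). Tmprss13, which supports barrier formation in mouse skin, held 96.7, 83.6 and 71.7 CPM in KO and 61.3, 53.6 and 41.4 CPM in WT (0.69 ± 0.18, edgeR adjusted p = 0.0454). Hepsin, Hpn, pointed the other way with 6.69, 7.49 and 6.23 CPM in KO and 7.80, 10.9 and 19.1 CPM in WT, but did not pass (-0.89 ± 0.31, edgeR adjusted p = 0.0807).

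Targets and partners of the proteases shared one direction. Of 14 genes on the list, 13 were in the table and tested, and 13 of 13 had a positive log2 fold change with a median of 0.84. Over all genes tested the median was 0.02, and the share with a positive value was not computed. By edgeR 2 passed in the higher direction, where 4.81% of all genes tested did. Both are subunits of the epithelial sodium channel that such proteases cleave to open. Scnn1a held 66.2, 73.4 and 49.8 CPM in KO and 39.5, 31.7 and 24.2 CPM in WT (0.99 ± 0.21, edgeR adjusted p = 0.0359). Scnn1g held 4.45, 6.06 and 4.09 CPM in KO and 2.92, 1.90 and 1.21 CPM in WT (1.26 ± 0.33, edgeR adjusted p = 0.0476).

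A further subunit of the channel, Scnn1b, had a log2 fold change of 0.84 ± 0.24 and just missed the threshold (edgeR adjusted p = 0.0567). Cdcp1, a surface protein that matriptase cuts, held 123, 99.8 and 117 CPM in KO and 81.6, 48.8 and 23.4 CPM in WT (1.14 ± 0.38, edgeR adjusted p = 0.0741). F2rl1, the protease-activated receptor downstream of matriptase, had overlapping groups (0.44 ± 0.24), as did the growth factor receptor Met (0.39 ± 0.20).

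Of 10 other inhibitors of trypsin-like proteases, 5 could be tested, and 4 of these had a positive log2 fold change. By edgeR 1 was called higher and 1 lower, where 4.81% and 7.43% of all genes tested were. Spink5, whose product restrains the kallikreins of the epidermis, rose in the tongues labelled KO. It held 1292, 539 and 306 CPM in KO and 180, 180 and 60.1 CPM in WT (2.35 ± 0.60, edgeR adjusted p = 0.0450). Serpine2, a secreted serpin that inhibits thrombin and urokinase and is also able to inhibit prostasin, fell. It held 65.8, 65.9 and 76.9 CPM in KO and 115, 130 and 151 CPM in WT (-0.92 ± 0.14, edgeR adjusted p = 0.0295).

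Serpinb5 (0.66 ± 0.24, edgeR adjusted p = 0.0875) and Spink12 (1.77 ± 0.64, edgeR adjusted p = 0.0897) did not pass. Over the 3 lists together 6 genes rose and 1 fell by edgeR, where 765 and 1181 of all 15903 genes tested did. DESeq2 called 15 higher and 2 lower, against 1909 and 2472 of all genes. By limma-voom the counts were 6 and 1, against 976 and 1271. Without any 1 of KO replicates 1, 2 and 3 or WT replicate 2, edgeR called 0 genes of these lists, with 10 to 15 at an unadjusted p under 0.05 in the higher direction. Without WT replicate 3 the counts were 3 higher and 1 lower, and without WT replicate 1 they were 15 and 2. The epithelial and muscle marker sums given above moved with these lists as well, and with the muscle or basal marker mean as a covariate edgeR called 0 of them, with 1 and 2 higher and 1 and 1 lower at an unadjusted p under 0.05.

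The authors deposited their own DESeq2 results beside the counts, as log2 of labelled WT over labelled KO, so that a negative value is higher in KO. In the authors' deposited table of all 6 libraries the 9 members had values of -2.34 to -0.41. Their 2 further deposited tables hold 4 of the same libraries each, with KO replicates 1 and 2 and either WT replicates 1 and 3 or WT replicates 2 and 3. In those deposited tables the members ran from -2.21 to -0.30 and from -3.03 to -0.49, and Tmprss11g was the lowest in each of the 3. Since the tables share libraries, their values are not independent of each other.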

How the data were processed

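Gene counts from 6 whole-tongue libraries (TruSeq RNA kit, per the labels' protocols) were used, 3 labelled HuR KO and 3 labelled WT, grouped by their titles. The authors deposited raw read counts per gene in 3 tables of 24067 genes each, of which 1 covers all 6 libraries. Further columns hold, per the file headers, the authors' mean normalised count (a signal), log2 fold change with its standard error, test statistic (a score), and p-value with adjusted p-value. HTSeq, DESeq2, hg19 and mm10 are named in the submitters' processing notes, without their roles. Which aligner, annotation and strand setting were used is not given in the sources used here, so reads of overlapping genes on opposite strands cannot be told apart.

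Tests used edgeR 4.0.16 (R 4.3.3). Its filterByExpr, with minimums of 10 counts after scaling and 15 in total, left 15903 genes, TMM factors scaled the libraries, and a robust quasi-likelihood model with group as its only term was tested with Benjamini-Hochberg adjustment over all genes at 0.05. Biological variation was 20.7% as a common coefficient. Standard errors are approximate, from the log2 fold change over the root of the F statistic, and intervals are at 95%. Log2 CPM used a prior count of 2. DESeq2 1.42.0 and limma 3.58.1 (voom) served as alternatives, besides other scalings, no filter, a replicate block, marker covariates and leaving out each library. KO replicate 1 alone against WT was chosen after seeing the data. The fit was checked on simulated counts with known changes.

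The members and gene lists were chosen with earlier results of these data known. Named genes are Elavl1, every member, in each further list the genes past the threshold and otherwise those with the smallest adjusted p up to 4, and the 5 genes most like St14 and most like the highest Tmprss11 member. A few further genes of these lists (F2rl1 and Met) and the markers S100a8, Amy1 and Entpd2 were named after their values were seen. Some genes that the rule names are not reported here. Exon lengths (protein-coding transcripts, or all annotated ones as an alternative chosen after seeing the data) and transcripts are from GENCODE M21 (GRCm38), and promoters from RefSeq. The labels do not say that every replicate is a separate mouse (by sex-linked genes, KO replicate 1 is not from the same mouse as KO replicates 2 and 3), so the spread behind the p-values may be technical in part, and counting error grows below 1 CPM.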

Additional observations from a re-analysis of the deposited data

How the results depend on the processing

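Of 135 combinations of a member and an alternative, 123 moved its log2 fold change by less than the spread between replicates, 12 moved it by more and 0 turned its direction. All of the 12 came from the muscle or basal covariate, except Spint2 with library size alone (0.51 to 0.67). Tmprss11e fell from 1.91 to 0.97 with the basal covariate and counted as less only because its spread was 0.99. The lowest values came mostly from the muscle covariate. The cause was not tested. Genes called higher and lower over the whole table numbered 765 and 1181 with group alone, 406 and 468 with library size alone (which moved the median log2 fold change of all genes from 0.02 to 0.18), and 1909 and 2472 by DESeq2. With the replicate number as a block they numbered 1705 and 2112, and 8 members were called. The numbers did not pair the samples (correlations of the deviations of same-numbered samples 0.12, -0.16 and 0.19, and not every sample was most like its own number). With a muscle or a basal keratinocyte marker covariate edgeR called 0 genes in either direction (at an unadjusted p under 0.05, 265 and 265 with muscle and 388 and 453 with basal), and hence 0 members. KO replicate 1 alone against WT also gave 0 and 0 (1116 and 1601 unadjusted), 0 members and 0 genes of the further lists. Leaving out 1 library each gave 0 to 2906 higher and 0 to 2938 lower, 0 to 7 members, and 0 to 15 higher and 0 to 2 lower in the further lists. The lowest whole-table counts came from leaving out KO replicate 2 or WT replicate 2, and the highest without WT replicate 1. In those lists 6 higher and 1 lower became 3 and 1 with library size alone, 15 and 2 by DESeq2, 13 and 1 with the block, and 0 and 0 with either covariate. The log2 ratio of St14 to Spint1 turned to -0.033 with the basal covariate (0.18 with group alone), and that of Prss8 to Spint2 to -0.32 with the muscle covariate (0.06). Depth limits Tmprss11f and, in WT replicate 3, Tmprss11e, which rests on 12 counts there.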
